A study of Mus musculus with 19 samples.

Results

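Oligodendrocytes are the cells that wrap axons of the central nervous system in myelin, and 9 genes of their lineage were followed in RNA from dendrites cut from cultured mouse hippocampal neurons. The 9 genes (Olig1, Olig2, Sox10, Nkx2-2, Enpp6, Cnp, Mbp, Mag and Mog) were chosen by name, from the regulators and myelin genes usually used to recognise the lineage, with earlier results of these data known. The rule itself used no values. They were 9 of 18193 genes measured, and 21 of 45037 probe sets (the groups of short probes that read a transcript on the array) belonged to them.

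Each of the 19 arrays held a pool of dendrites from primary cultures of E18 mouse embryos that had been kept for 14 days. Of the 5 Balb/c pools 2 held 100 dendrites, 1 held 200 and 2 held 400. Of the 14 C57BL/6 pools 4 held 100, 5 held 200 and 5 held 400. Both are inbred strains, no treatment was given, and all pools were severed from their cells with a glass pipette and amplified in several rounds before labelling. Pools are labelled as pyramidal neurons and were gathered over many cells. The sources call them biological replicates but do not give the cultures or animals behind them, and the p-values therefore reflect the spread among these pools only. The number of arrays limits the precision.

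A lineage of this kind starts from dividing progenitor cells, in which the helix-loop-helix factors Olig1 and Olig2, the Sox factor Sox10 and the homeobox factor Nkx2-2 direct the oligodendrocyte fate. Newly formed oligodendrocytes switch on the choline phosphodiesterase Enpp6, and maturing cells make the proteins of the sheath: Cnp, an enzyme of the cytoplasmic channels of myelin, Mbp, which holds the compacted membrane layers together, Mag, an adhesion molecule on the side facing the axon, and Mog, on the outer surface. Neurons are not known as a main source of these proteins, and hippocampal cultures can hold glial cells.

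The values are log2 expression values as deposited. An array is named by its strain, pool size and replicate number, and differences are Balb/c minus C57BL/6. For the median gene the Balb/c value was 0.22 log2 units higher (0.25 for the median probe set), so the differences below are given relative to that median, while the tests used the deposited values. Each p-value and SE therefore belongs to the deposited difference, and not to the difference relative to the median. A gene was called when the adjusted p of the limma fit over all genes was under 0.05. In a pool, fewer cells of a type and less RNA per cell cannot be told apart.

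Below, 3 arrays, Balb/c 200-1, C57BL/6 200-1 and C57BL/6 400-1, are called the arrays between the strains. Over all genes they correlated with each other at 0.849 to 0.929. The mean correlation of Balb/c 200-1 with the other 4 Balb/c arrays was 0.678, against 0.763 with the 12 other C57BL/6 arrays. C57BL/6 200-1 was at 0.781 with the 5 Balb/c arrays, among them Balb/c 200-1, against 0.750 with those 12. C57BL/6 400-1 was at 0.722 with the 5 Balb/c arrays, among them Balb/c 200-1 at 0.929, against 0.773 with those 12. It was thus closer to its own strain, and the shared name of the 3 arrays is only a label. The 3 arrays were picked from these same data, and without them more of all genes were called in both directions. Such a fit is therefore no independent support for a strain difference. Results are given with and without these 3 arrays. The columns also came in a pair of number formats. All 5 Balb/c columns and 4 C57BL/6 columns were written with up to 14 decimals and the other 10 C57BL/6 columns with up to 9, and the sources used here do not say what the formats stand for. Strain results are also given with the format as a block.

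Sequence just before a listed transcript start was read for the members that a RefSeq table of promoter windows held, which were 6 of 9. The 3 members without a window were Sox10, Olig1 and Mbp. Shown are the 250 bases before a listed start (GRCm38.p6) for Nkx2-2, Enpp6, Mag and Olig2. Nkx2-2 was called higher in Balb/c, with no overlap between strains in the deposited values. Enpp6 and Mag were also called higher, and Olig2 averaged lower in Balb/c without a call. The windows of Nkx2-2 and Enpp6 lie before starts inside the span of the gene, not at its outermost start. Capitals mark each match to CANNTG, the E-box letters that helix-loop-helix factors such as Olig2 can bind.
Nkx2-2, chr2:147186403-147186652, minus strand: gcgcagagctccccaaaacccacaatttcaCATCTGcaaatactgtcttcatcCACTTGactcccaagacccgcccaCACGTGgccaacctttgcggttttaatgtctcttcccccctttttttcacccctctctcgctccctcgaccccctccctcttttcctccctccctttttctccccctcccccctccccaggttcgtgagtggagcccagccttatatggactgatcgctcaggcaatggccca
Enpp6, chr8:46986637-46986886, plus strand: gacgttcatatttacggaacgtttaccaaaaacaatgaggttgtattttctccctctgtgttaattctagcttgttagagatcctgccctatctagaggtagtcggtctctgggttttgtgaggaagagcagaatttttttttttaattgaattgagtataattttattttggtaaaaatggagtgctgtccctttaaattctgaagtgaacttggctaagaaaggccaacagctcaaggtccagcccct
Mag, chr7:30914923-30915172, minus strand: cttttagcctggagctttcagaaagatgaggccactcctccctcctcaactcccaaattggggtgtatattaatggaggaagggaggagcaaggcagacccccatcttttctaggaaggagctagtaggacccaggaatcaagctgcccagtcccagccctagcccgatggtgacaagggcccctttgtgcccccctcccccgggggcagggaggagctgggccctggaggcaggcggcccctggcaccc
Olig2, chr16:91225300-91225549, plus strand: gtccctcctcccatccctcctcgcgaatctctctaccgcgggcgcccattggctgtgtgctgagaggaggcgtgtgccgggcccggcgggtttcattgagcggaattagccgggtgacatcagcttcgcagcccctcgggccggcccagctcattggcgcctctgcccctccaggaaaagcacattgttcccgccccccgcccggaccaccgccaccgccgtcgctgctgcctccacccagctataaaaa

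The Nkx2-2 window held 3 matches to CANNTG, and the windows of Enpp6, Mag and Olig2 shown here held 0. Over 32851 windows of the same length, 66.2% held at least 1 match. The letters ACAAAG, which Sox factors can bind, read on either strand, were in the Mag window shown and in that of Cnp and not in those of Nkx2-2, Enpp6, Olig2 or Mog, and 16.5% of all windows held them. The RefSeq table listed 3 starts for Mag, and the windows of the other starts held 1 and 2 CANNTG matches. The match is a description of letters and was not compared with the expression values.

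Of the 9 members, 5 were called higher in Balb/c dendrites (Nkx2-2, Sox10, Enpp6, Mag and Mbp) and 0 lower. Over all genes 21.1% were called higher and 11.4% lower. Before any adjustment, 6 members had a p under 0.05, the sixth being Olig2, which averaged lower in Balb/c, and 43.7% of all genes had such a p. At the threshold of 0.001 that the study's methods name, Nkx2-2 and Sox10 passed in limma, and 3.85% of all genes did. With the t-test that those methods name, 0 members passed that threshold, against 0.418% of all genes (76), and the lowest adjusted p of a member was 0.00120 (Nkx2-2). Without the 3 arrays between the strains, the same 5 were called higher and Olig1 and Olig2 were called lower, against 28.2% and 15.3% of all genes. With the number format as a block, 0 members were called and 4 (Nkx2-2, Sox10, Enpp6 and Mbp) had an unadjusted p below 0.05, where 1.92% of all genes were called and 21.5% had such an unadjusted p.

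**Figure D1:**
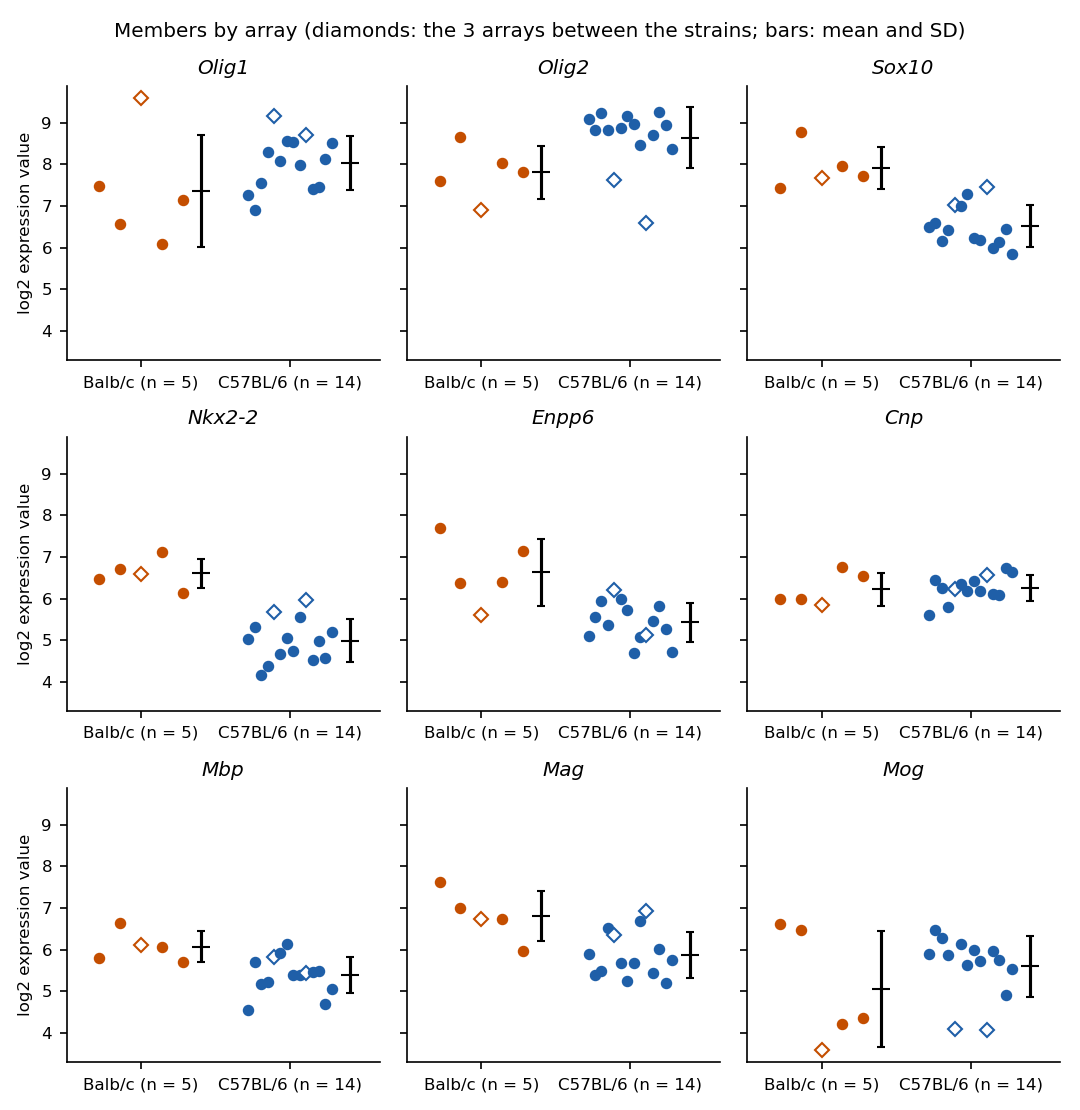
Log2 expression value of each of the 9 members (vertical axis) in every array, with the 5 Balb/c arrays left of the 14 C57BL/6 arrays. Bars give the mean and SD of a strain and open diamonds the 3 arrays between the strains. In these deposited values Nkx2-2 separated the strains, and the diamonds sit at the low end for Mog and at the high end for Olig1.

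Nkx2-2, the homeobox factor, showed the clearest separation of the strains among the members. It was at 6.47, 6.71, 6.59, 7.11 and 6.13 log2 units in the 5 Balb/c arrays, against a lowest, median and highest value of 4.17, 5.01 and 5.96 in the 14 C57BL/6 arrays. In the deposited values every Balb/c array lay above every C57BL/6 array, Balb/c 200-1 included, and 0.797% of all genes (145) had that order. The lowest Balb/c value was 6.133 in 400-2, whose array median was 6.912. The highest C57BL/6 value was 5.964 in 400-1, whose array median was 6.738. Set against those medians, these 2 arrays changed places by a small margin. The strain difference was 1.39 ± 0.26 (SE) log2 units relative to the median gene, at an adjusted p of 0.000294 (limma). The highest C57BL/6 values came from the 2 arrays between the strains, 400-1 with 5.96 and 200-1 with 5.68. With the number format as a block the difference was 0.97 ± 0.30 (SE), with an adjusted p of 0.0548. The probe set was dim, above the median of its own array in 1 of 5 Balb/c arrays and in 0 of 14 C57BL/6 arrays.

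Sox10, which switches on myelin genes, was higher in Balb/c as a gene but not in all of its probe sets. The gene value was 7.43, 8.77, 7.68, 7.95 and 7.72 log2 units in Balb/c, against a lowest, median and highest of 5.84, 6.44 and 7.44 in C57BL/6. Of the C57BL/6 arrays only 400-1 reached above the lowest Balb/c array. The difference was 1.17 ± 0.27 (SE) relative to the median gene, at an adjusted p of 0.000889 (limma), and 0.89 ± 0.33 (SE) with the format as a block (adjusted p = 0.0912). Of the 3 probe sets, 1424985_a_at carried the difference: it was at 7.68 to 8.77 in Balb/c, against 5.01 to 7.44 in C57BL/6. The other two were not called, with 1425369_a_at at 4.75 to 6.75 in Balb/c against 5.58 to 6.58 in C57BL/6, and 1451689_a_at at 7.43 to 9.76 against 7.19 to 8.4. Where the probe set with the highest mean, 1451689_a_at, stood for the gene, the Sox10 difference was 0.18 and not called (adjusted p = 0.368).

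Olig1 and Olig2, which lie near each other on chromosome 16, had lower means in Balb/c and were not called over the 19 arrays. Olig2 was at 7.60, 8.66, 6.91, 8.02 and 7.82 log2 units in Balb/c, against a lowest, median and highest of 6.59, 8.85 and 9.25 in C57BL/6. Only 1 Balb/c array, 100-2, was above the C57BL/6 mean. The strains overlapped, with 4 C57BL/6 arrays below the highest Balb/c array, among them 400-1 (6.59) and 200-1 (7.63), the lowest of their strain. The difference was -1.05 ± 0.35 (SE) relative to the median gene, at an adjusted p of 0.0722 (limma). It passed without C57BL/6 400-1 (adjusted p = 0.00796), without C57BL/6 200-1 (0.0409), without Balb/c 100-2 (0.0438) and without the 3 arrays between the strains, where it was -1.12 (0.00472). It also passed with quantile normalisation (0.0419), with range scaling (0.0410) and with array weights (0.0236). With the number format as a block it was -0.37 ± 0.41 (SE), with an adjusted p of 0.777.

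Olig1 was at 7.48, 6.56, 9.58, 6.09 and 7.13 log2 units in Balb/c, against a lowest, median and highest of 6.90, 8.10 and 9.15 in C57BL/6. The highest of all 19 values came from Balb/c 200-1 and the other 4 Balb/c arrays were below the C57BL/6 mean. The difference was -0.88 ± 0.41 (SE) relative to the median gene, at an adjusted p of 0.218 (limma). Without Balb/c 200-1 it was -1.47 with an adjusted p of 0.00988, and without the 3 arrays between the strains -1.33 with an adjusted p of 0.0110. The 4 factors thus did not share a direction over all 19 arrays. Nkx2-2 and Sox10 were called higher in Balb/c, while Olig1 and Olig2 averaged lower without a call. Their calls without the 3 arrays rest on an exclusion picked from these same data.

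Enpp6, which marks oligodendrocytes as they form, was higher in Balb/c in both of its probe sets. The gene value was 7.69, 6.37, 5.60, 6.39 and 7.13 log2 units in Balb/c, against a lowest, median and highest of 4.70, 5.41 and 6.20 in C57BL/6. Balb/c 200-1 lay within the C57BL/6 range and the other 4 above it. The difference was 0.98 ± 0.29 (SE) relative to the median gene, at an adjusted p of 0.00443 (limma), and 1.0 ± 0.38 (SE) with the format as a block (adjusted p = 0.103). In pools of 100 dendrites alone it was 1.33 (adjusted p = 0.0667). Probe set 1436090_at was higher by 0.98 ± 0.30 (SE) and 1438785_at by 0.92 ± 0.39 (SE) relative to the median probe set.

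Mag, the adhesion molecule, was read by a single probe set, as were Nkx2-2, Olig1, Olig2 and Mog. It was at 7.61, 7.0, 6.73, 6.74 and 5.97 log2 units in Balb/c, against a lowest, median and highest of 5.21, 5.71 and 6.93 in C57BL/6. All 5 Balb/c arrays were above the C57BL/6 mean, 2 of them above all C57BL/6 arrays, and 5 C57BL/6 arrays were above the lowest Balb/c array. The difference was 0.72 ± 0.29 (SE) relative to the median gene, at an adjusted p of 0.0188 (limma). It lost the call without Balb/c 100-1 (adjusted p = 0.0747), with range scaling (0.0506), with array weights (0.0568), in pools of 100 dendrites alone (0.0630) and with the format as a block (0.304). In pools of 400 dendrites alone it was 0.20 (0.499).

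Mbp, the major basic protein of myelin, was read by 8 probe sets that did not move together. The gene value, which is their median, was 5.81, 6.65, 6.12, 6.07 and 5.70 log2 units in Balb/c, against a lowest, median and highest of 4.54, 5.42 and 6.14 in C57BL/6. All 5 Balb/c values were above the C57BL/6 mean and 4 C57BL/6 arrays were above the lowest of them. It was called on its deposited difference of 0.68 ± 0.24 (SE; limma, adjusted p = 0.0361), of which 0.46 lay beyond the median gene. The part beyond the median gene was not tested by itself. The call was lost without Balb/c 100-2 (adjusted p = 0.129), Balb/c 400-1 (0.0719), Balb/c 200-1 (0.0557), C57BL/6 400-4 (0.0526), C57BL/6 400-5 (0.0519) or C57BL/6 100-3 (0.05005). It was also lost with quantile normalisation (0.0988) and with range scaling (0.132). Of the 8 probe sets, 1425263_a_at (0.81 ± 0.30 SE) and 1456228_x_at (0.76 ± 0.35 SE) were called higher, 1451961_a_at (-1.22 ± 0.37 SE) was called lower and the other 5 were not called. The deposited differences behind these calls were 1.06, 1.02 and -0.97 in turn.

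The Mbp probe sets also differed in brightness. Probe set 1425264_s_at was above its array's median in all 19 arrays. It was at 8.08, 10.1, 9.96, 9.84 and 9.89 log2 units in Balb/c, against a lowest, median and highest of 8.32, 9.61 and 10.1 in C57BL/6, and its difference of -0.19 was not called (adjusted p = 0.898). Probe set 1451961_a_at, the one called lower, was at 7.42, 7.13, 7.88, 9.63 and 8.59 in Balb/c, against 7.60, 9.16 and 9.78 in C57BL/6. Its call (adjusted p = 0.0479) was lost on leaving out any of 15 arrays, all but Balb/c 400-1, C57BL/6 200-1, C57BL/6 400-1 and C57BL/6 400-2. It was also above its array's median in all 19 arrays. The probe set 1425263_a_at, called higher, was above it in 1 Balb/c array and in 0 C57BL/6 arrays, and 1456228_x_at in 0 arrays. The probe sets 1433532_a_at, 1436201_x_at and 1454651_x_at were above it in 0 arrays as well and were not called (-0.24, -0.04 and -0.34). Where the brightest probe set stood for the gene, the Mbp difference relative to the median gene changed sign, to -0.12 (adjusted p = 0.895). Over all 21 probe sets of the members, 7 were called higher and 1 lower, against 21.3% and 11.6% of all probe sets. Without the 3 arrays between the strains 8 were called higher and 3 lower, against 12822 and 6836 of all 45037 probe sets.

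**Figure D2:**
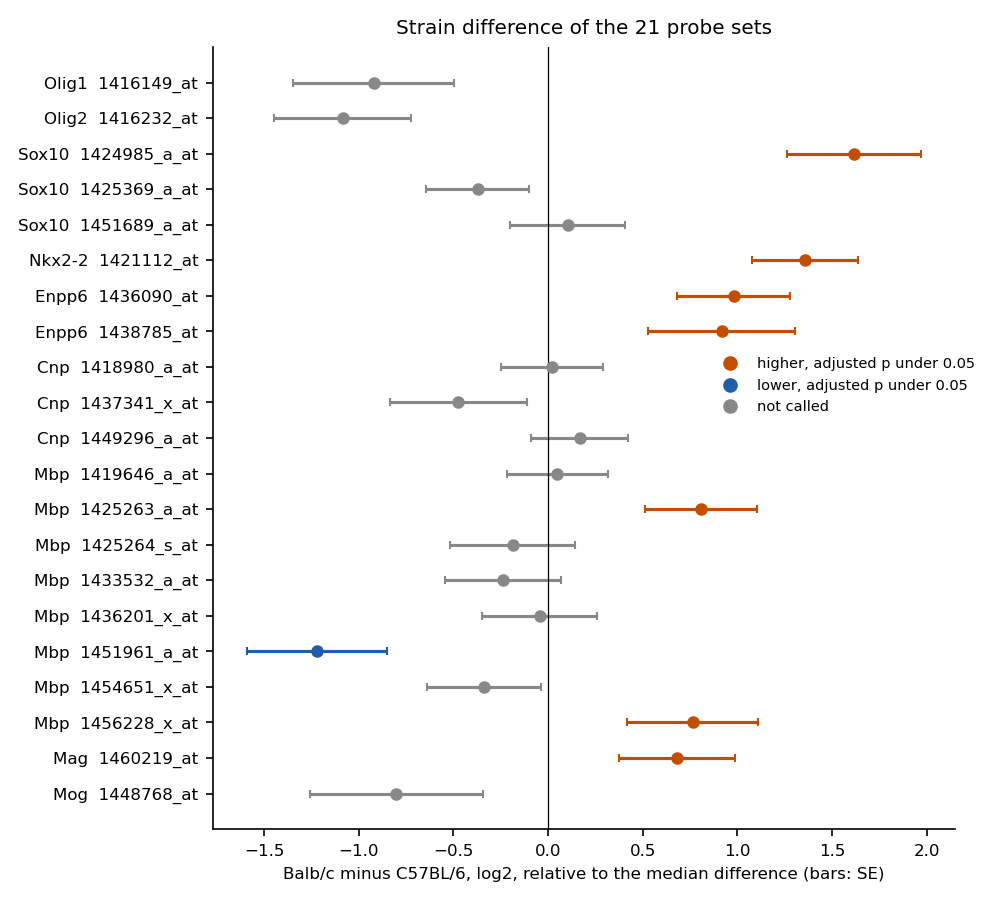
Strain difference of each of the 21 probe sets of the members on the log2 scale, Balb/c minus C57BL/6 relative to the median probe set (horizontal axis), with its standard error, grouped by gene from top to bottom. The 8 Mbp probe sets run between -1.22 and 0.81, and only 1 of the 3 Sox10 probe sets was called.

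Cnp and Mog, the remaining sheath proteins, were not called. Cnp was at 6.00, 5.99, 5.84, 6.76 and 6.53 log2 units in Balb/c, against a lowest, median and highest of 5.61, 6.25 and 6.73 in C57BL/6, and the strains overlapped over almost their whole range. The deposited difference was -0.03 ± 0.21 (SE), at an adjusted p of 0.915 (limma), and -0.25 relative to the median gene. Of its 3 probe sets 0 were called.

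Mog, like Olig1, was widely spread in Balb/c. It was at 6.61, 6.47, 3.60, 4.21 and 4.36 log2 units in Balb/c, against a lowest, median and highest of 4.07, 5.81 and 6.48 in C57BL/6. The 2 Balb/c pools of 100 dendrites were at the top of the range, and the other 3 Balb/c pools at the bottom with C57BL/6 200-1 (4.11) and 400-1 (4.07). The strain difference was -0.76 ± 0.44 (SE) relative to the median gene, at an adjusted p of 0.352 (limma), and it was 0.19 (0.478) in pools of 100 dendrites alone and -1.25 (0.198) in pools of 400 alone.

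**Figure D3:**
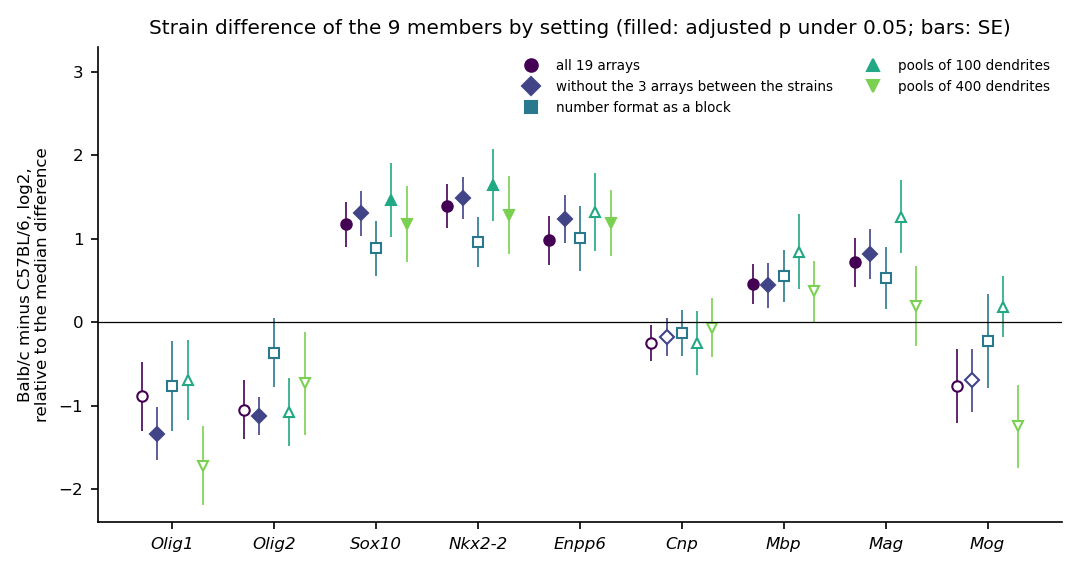
Strain difference of the 9 members on the log2 scale, Balb/c minus C57BL/6 relative to the median gene (vertical axis), with its standard error, under 5 settings shown by marker shape. Filled markers have an adjusted p under 0.05. Nkx2-2, Sox10 and Enpp6 stay between 0.89 and 1.64 in all 5 settings, but 0 of the 9 members are filled with the number format as a block.

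The number format bears on every strain call above, because its 10 short columns were all C57BL/6. Within the 9 long columns alone, 5 of Balb/c against 4 of C57BL/6, the differences relative to the median gene were 0.97 for Nkx2-2, 0.89 for Sox10, 1.0 for Enpp6, 0.53 for Mag and 0.55 for Mbp. Of the members 0 were called there and 3 (Nkx2-2, Sox10 and Enpp6) had an unadjusted p under 0.05, while over all genes 0 were called and 2367 (13%) had an unadjusted p under 0.05. The 4 C57BL/6 arrays of that format include both C57BL/6 arrays that lay between the strains. For the 10 short columns, format and strain cannot be told apart from each other.

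Pool size, the number of dendrites collected, was compared as a slope per doubling with strain as a covariate. Of all 18193 genes 0 were called (0%), 850 had an unadjusted p under 0.05, and 0 of the 9 members were called. Among the members, Mog (-0.65 ± 0.20 SE log2 units per doubling, unadjusted p = 0.00356, adjusted p = 0.870) and Cnp (0.24 ± 0.10 SE, unadjusted p = 0.0344, adjusted p = 0.959) had an unadjusted p under 0.05. Mog averaged 6.54, 3.60 and 4.29 in Balb/c pools of 100, 200 and 400 dendrites, and 6.14, 5.52 and 5.25 in C57BL/6 pools of those sizes. Within C57BL/6, where the 4 pools of 100 ran from 5.88 to 6.48 and the 5 pools of 400 from 4.07 to 5.98, the ranges overlapped. The 3 arrays between the strains had the lowest Mog values and all held 200 or 400 dendrites. No pool size fit left them out together, so their part in the Mog slope was not tested. The difference between strains in the slope was called for 0 genes (0%), with 690 at an unadjusted p under 0.05, and the lowest unadjusted p of a member was 0.112 (Mog).

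**Figure D4:**
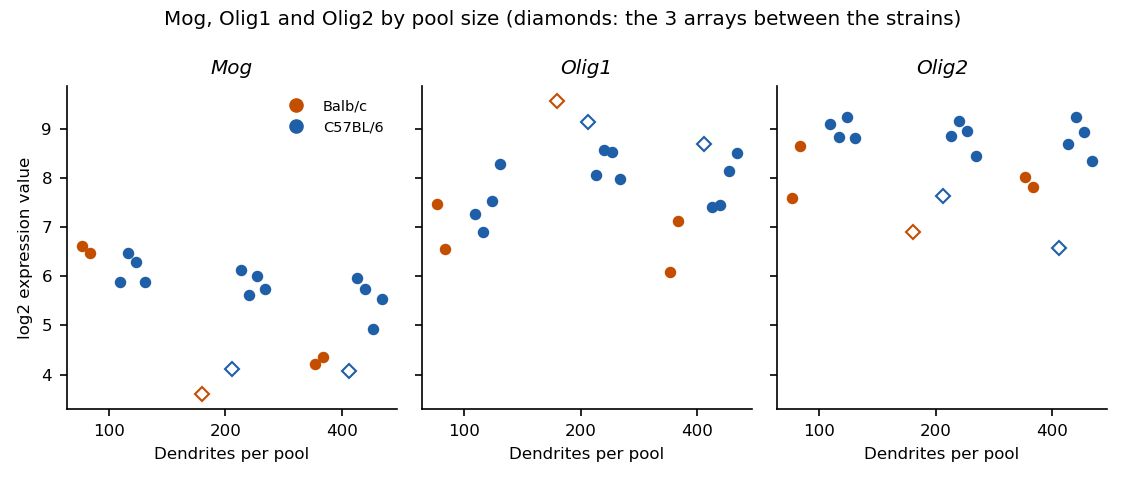
Log2 expression value of Mog, Olig1 and Olig2 (vertical axis) by dendrites per pool (100, 200, 400), with Balb/c left of C57BL/6 at each size and open diamonds for the 3 arrays between the strains. Mog sits at or above 5.88 in all 6 pools of 100 dendrites, and the diamonds are low in Mog and Olig2 and high in Olig1.

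The 3 arrays between the strains shared a pattern in the members that differed by gene. For Mog they were the 3 lowest of 19, 3.60, 4.11 and 4.07 for Balb/c 200-1, C57BL/6 200-1 and C57BL/6 400-1. For Olig1 they were the 3 highest of 19, at 9.58, 9.15 and 8.69. For Olig2 they were at 6.91, 7.63 and 6.59, with the lowest values of the series in C57BL/6 400-1 and Balb/c 200-1. Olig1 and Olig2 thus stood at opposite ends in the same arrays.

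The gene values of the members were set against the median of each array. Olig2 was above it in 5 of 5 Balb/c and 13 of 14 C57BL/6 arrays, Olig1 in 3 of 5 and 14 of 14, and Sox10 in 5 of 5 and 4 of 14. Mag and Enpp6 were above it in 2 of 5 Balb/c arrays each, and in 1 and 0 of the 14 C57BL/6 arrays, Cnp in 0 and 2, and Mbp and Mog in 0 of 19. A second scale came from 71 genes of olfactory and vomeronasal receptors, which neither neurons of the hippocampus nor oligodendrocytes are known for. Their 95th percentile lay between 8.44 and 10.003 log2 units in the arrays. Their median was 6.64 to 6.82 in Balb/c, against 5.73 to 6.65 in C57BL/6. The highest C57BL/6 medians came from 200-1 (6.65) and 400-1 (6.52). The receptor median thus also ran higher in Balb/c. The strain differences of the members are relative to the median gene and were not tested against that shift. Of 19 arrays, Mbp and Nkx2-2 exceeded the receptor median in 1, Mog and Enpp6 in 4 and Mag in 7. Cnp did so in 11, Olig1 in 17, and Sox10 and Olig2 in all 19. As gene values, Olig2 exceeded the 95th percentile in 0 Balb/c and 4 C57BL/6 arrays, Olig1 in 1 and 1, and the other 7 members in 0 of 19. Single probe sets did exceed it. Mbp probe set 1425264_s_at did so in 3 Balb/c and 11 C57BL/6 arrays, and 1451961_a_at in 0 and 7. Sox10 probe set 1451689_a_at did so in 1 and 0. Probe sets differ in how brightly they read a transcript, so a value below this range does not show that a transcript was missing.

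The wider lineage was described by 3 lists. Of 14 progenitor genes 12 were measured, of which 1 was called higher and 1 lower in Balb/c, beside 21.1% and 11.4% of all genes. The counts were 2 higher and 1 lower without the 3 arrays between the strains, and with the format as a block 0 and 0 (C1ql1 at an adjusted p of 0.0717, Ptprz1 at 0.273). C1ql1, a secreted C1q-like protein, was at 8.39 to 9.66 log2 units in Balb/c against 6.78 to 8.56 in C57BL/6, and the strains differed by 1.23 ± 0.28 (SE) beyond the median gene (limma, adjusted p = 0.000943). Ptprz1, a receptor phosphatase of progenitors and astrocytes, was at 5.39 to 9.22 in Balb/c against 5.88 to 9.60 in C57BL/6, a difference of -2.49 ± 0.57 (SE; adjusted p = 0.00501). Cspg4, the NG2 proteoglycan, and Sox8 were not called (0.26 and -0.78). The median over the list was -0.18 relative to the median gene.

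Of 35 measured myelin and mature oligodendrocyte genes, 11 were called higher, 1 was called lower and 23 were not called, beside 21.1% and 11.4% of all genes. The median over the list was 0.23 relative to the median gene. Gjc3, a connexin of oligodendrocytes, was at 7.21 to 8.59 log2 units in Balb/c against 6.02 to 7.19 in C57BL/6. In the deposited values every Balb/c array lay above every C57BL/6 array, an order that 0.797% of all genes had. The lowest Balb/c value (7.21) and the highest C57BL/6 value (7.19) lay closer together than the 0.22 of the median gene. The difference was 1.27 ± 0.25 (SE; limma, adjusted p = 0.000341). Gjb1, another connexin, differed by 1.31 ± 0.30 (SE; adjusted p = 0.000953), and Fa2h, which hydroxylates the fatty acids of myelin lipids, by 1.20 ± 0.32 (SE; adjusted p = 0.00274). Myrf, the factor that maintains myelin gene expression, was also among the 11, with 1.36 (adjusted p = 0.00567), named after its values were seen. The 1 gene called lower was Qdpr, which recycles tetrahydrobiopterin, at 7.45 to 10.3 in Balb/c against 9.00 to 10.8 in C57BL/6 (-1.57 ± 0.33 SE; adjusted p = 0.00452). Gpr37, a receptor of high mean in the list, did not pass (-0.03; adjusted p = 0.571). Without the 3 arrays between the strains 13 were called higher and 2 lower, and with the format as a block 1 higher (Gjc3, adjusted p = 0.0497) and 0 lower.

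Of 33 regulators of the lineage 5 were called higher and 5 lower, beside 21.1% and 11.4% of all genes. Jag1, a Notch ligand, was higher by 0.999 ± 0.32 (SE; limma, adjusted p = 0.00686) relative to the median gene. Lower were the thyroid hormone receptor Thra (-1.58 ± 0.30 SE; adjusted p = 0.00206), the stem cell factor Sox2 (-2.34 ± 0.53 SE; adjusted p = 0.00506) and the chromatin remodeller Smarca4 (-1.89 ± 0.42 SE; adjusted p = 0.00545). Thra and Smarca4 act in neurons as in glia. Pdgfa, the growth factor of progenitors and of high mean in the list, did not pass (-0.64; adjusted p = 0.187). Without the 3 arrays between the strains 8 were called higher and 6 lower, and with the format as a block 0 higher and 1 lower (Sox2, adjusted p = 0.0435), with Smarca4 at an adjusted p of 0.0556, Thra at 0.0675 and Jag1 at 0.216.

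**Figure D5:**
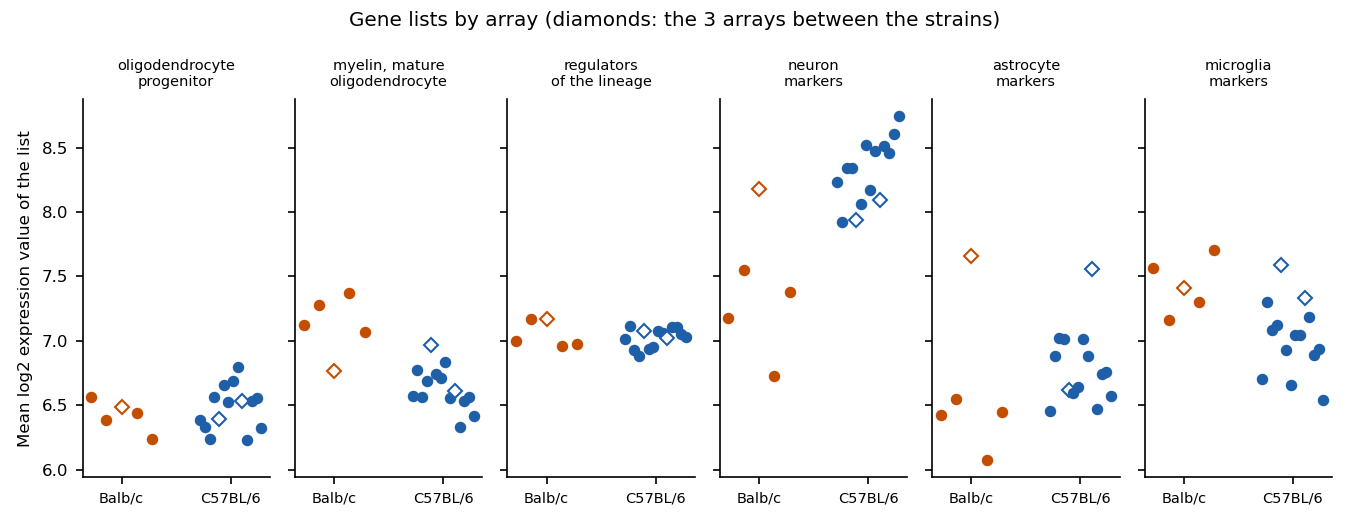
Mean log2 expression value (vertical axis) of 3 lineage lists and of neuron, astrocyte and microglia markers in every array, with Balb/c left of C57BL/6 and open diamonds for the 3 arrays between the strains. The myelin list runs from 6.77 to 7.38 in Balb/c and from 6.33 to 6.97 in C57BL/6, and the neuron markers from 6.73 to 8.18 in Balb/c and from 7.92 to 8.74 in C57BL/6.

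Markers of other cells were read beside the members, where 21.1% of all genes were called higher and 11.4% lower in Balb/c. Of 17 neuron markers measured, 2 were called higher and 7 lower in Balb/c, with a median of -0.90 relative to the median gene, and the mean level of the list ran from 6.73 to 8.18 in Balb/c against 7.92 to 8.74 in C57BL/6. Stmn2, a tubulin-binding protein of growing neurites, was at 5.13 to 9.76 in Balb/c against 8.50 to 12.6 in C57BL/6, and Nefl, a neurofilament subunit, at 7.07 to 9.28 against 9.14 to 11.4. Without the 3 arrays between the strains 1 neuron marker was called higher and 8 lower, and with the format as a block 0 higher and 3 lower. Set against the label of pyramidal neurons, the list mean was compared with the range of the array medians (6.62 to 6.95). It lay above that range in all C57BL/6 arrays and in all Balb/c arrays but 400-1. The mean of the microglia list below lay above it in all Balb/c arrays (7.16 to 7.70). It exceeded the neuron mean in Balb/c 100-1, 400-1 and 400-2 (7.56, 7.30 and 7.70 against 7.18, 6.73 and 7.38). The neuron mean was the higher one in Balb/c 100-2 and 200-1 (7.55 and 8.18 against 7.16 and 7.41). It was also higher in all C57BL/6 arrays. In Balb/c, a list mean above the array medians therefore does not single out neurons. Of 14 astrocyte markers 0 were called higher and 3 lower, with list means of 6.07 to 7.66 in Balb/c against 6.46 to 7.55 in C57BL/6. Of 14 microglia markers 3 were called higher and 0 lower, the higher count being near the share of all genes. Their list means were 7.16 to 7.70 in Balb/c against 6.54 to 7.59 in C57BL/6. Of the microglia markers 5 were called higher and 0 lower without the 3 arrays, and with the block 1 and 0, while astrocyte markers gave 0 higher and 3 lower without the 3 arrays and 0 and 0 with the block. The values are on a log scale of probe brightness without a zero, and the part of these markers in the results of the members was not tested.

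The genes whose pattern was most like that of Olig2, the member of highest mean, were sought over the 14 C57BL/6 arrays. They were Ddx47 (Pearson r 0.955, Spearman rho 0.811), Samsn1 (0.955 and 0.811) and Fbxo17 (0.951 and 0.771). Without C57BL/6 400-1 and 200-1, the arrays where Olig2 was lowest, r over the other 12 was 0.686, 0.679 and 0.747. The arrays share strain, platform and amplification, and each array adds all of its genes to the comparison at the same time.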

How the data were processed

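The authors deposited a log2 value for each probe set of an Affymetrix mouse genome array. They ran RMA (the submitters' processing notes give version 2.0), with a set's upper decile of probes as its value. The median centring and range scaling that the methods name had not been applied, as the medians of the arrays differed (6.62 to 6.95), and it was tried as an alternative. The base was taken from the range of values, 2.12 to 16. Per probe set and gene no depth exists, and the number of arrays sets the precision.

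Of 45101 probe sets 64 were controls and left out. Symbols came from the platform annotation, where 34945 probe sets had 1 symbol, and genes with several such probe sets got their median. No filter on dim genes was used. No probe set with several symbols named a member.

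Strain was the only term of the limma fit (version 3.58.1, R 4.3.3) over all 19 arrays, since the methods name no covariate. P-values were adjusted by Benjamini-Hochberg over all genes, or over all probe sets, at 0.05 and at 0.001. Pool size was fitted as a slope per doubling with strain as a covariate, and as an interaction with strain. The script was tested on simulated data. The closing section gives the alternatives: normalization, gene value, a filter on dim genes, covariates, blocks, weights and arrays left out. Balb/c 100-2 and 400-1 were also left out together, as their columns held the fewest different values. These were 1569 and 2052, against 2603 to 5556 in the other arrays. Without both, Mag (limma, adjusted p = 0.108) and Mbp (0.261) were not called. Replicate numbers did not pair the samples. What is called the methods' t-test assumes equal variances.

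The members, lists and tests were chosen with earlier results of these data known. All members and probe sets are named. In each lineage list the 4 genes of smallest p and the 2 of highest mean were to be named, and in each marker list up to 3 of highest mean. Camk2a, Prox1 and Myrf were added after their values were seen. Promoter windows are from RefSeq (GRCm38.p6).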

Additional observations from a re-analysis of the deposited data

Results flagged for a closer look

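Of 30 sets of values (9 members and 21 probe sets in the 5 Balb/c arrays) tested for a sample far from the others, 1 stood out, and chance alone marks about 1 in 20. The Mbp probe set 1425264_s_at was at 8.08 log2 units in Balb/c 100-1, with the other 4 Balb/c arrays at 9.84 to 10.1, so that the gap took up 0.866 of the whole range (critical value 0.710). The C57BL/6 arrays, too many for this test, were at 8.32 to 10.1.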

How the results depend on the processing

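With all arrays 5 members were called higher and 0 lower in Balb/c, and 7 probe sets higher and 1 lower. Members called higher numbered 3 with range scaling, with the probe set of highest mean, without probe sets ending in _s_at, _x_at or _a_at (6 members tested), without Balb/c 100-2 and 400-1 and in pools of 400 dendrites, 2 in pools of 100, and 1 with the filter on dim genes (3 tested). Of all 18193 genes 3837 were called higher with all arrays, 2600 with range scaling and 3740 with the probe set of highest mean. Without Balb/c 100-2 and 400-1 it was 1115, in pools of 400 1757 and in pools of 100 1058. With the dim filter it was 2575 of 12321. Members called lower numbered 1 with quantile normalisation, range scaling or array weights and 2 without the 3 arrays between the strains. Of all genes 2073 were called lower with all arrays, and 2522, 2663, 2293 and 2792 in those settings in turn. Probe sets called higher numbered 3 without Balb/c 100-2 and 400-1 and 2 with the dim filter. They numbered 2 in pools of 100 and 1 in pools of 400. Of all 45037 probe sets 9596 were called higher with all arrays and 2685 without Balb/c 100-2 and 400-1. It was 6558 of 29367 with the dim filter, 2491 in pools of 100 and 4335 in pools of 400. Probe sets called lower numbered 2 with quantile normalisation, range scaling or array weights, 3 without the 3 arrays, and 0 with the methods' t-test, with pool size as covariate, without Balb/c 100-2 and 400-1 and in pools of 400. Of all probe sets 5205 were called lower with all arrays, 6004 with quantile normalisation, 6398 with range scaling and 5690 with array weights. It was 6836 without the 3 arrays, 4783 with the methods' t-test and 5223 with pool size as covariate. Without Balb/c 100-2 and 400-1 it was 2441, and in pools of 400 3418. All 4 counts of the members were 0 within the long format and where the number format was a block. Of all genes 0 were called within the long format, and 118 higher and 232 lower with the block. Leaving out 1 array gave 4 to 5 members higher, 0 to 1 lower, 4 to 8 probe sets higher and 0 to 2 lower. The 4 higher probe sets came without Balb/c 100-1 or without Balb/c 100-2. Of all genes, leaving out 1 array gave 2529 to 4350 called higher and 1564 to 2344 lower. The Mbp difference turned to -0.12 (adjusted p = 0.895) with the probe set of highest mean. Pool size called 0 members in every setting. Beyond the smaller numbers of arrays, genes or probe sets in some settings, the cause was not tested.

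With the replicate block all 4 counts were 0, and 3 members (Nkx2-2, Sox10 and Enpp6) had an unadjusted p under 0.05, as did 18.3% of all genes. The numbers do not pair the samples, as arrays of the same number in both strains correlated in their deviations from the strain means at -0.19 to 0.07.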
